A study of Bos taurus with 2 samples.

Results

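Transcription factors that set the lineages of blood cells (10 genes) were read on arrays of cattle whole blood, from Holstein (Bos taurus): SPI1, CEBPA, CEBPB, CEBPD, GATA1, GATA2, GATA3, RUNX1, SOX4 and TCF7. Members were every probe, other than control spots, that carried one of these gene symbols on the array or through the gene table entry of its RefSeq accession. This gave 23 probes for the 10 genes, out of 16959 gene names on the array; 19 probes were assigned by accession and 4 by the array's symbol only. The data are 2 one-colour bovine oligonucleotide arrays, 1 hybridised with Cy3-labelled total RNA from a specimen of low feed efficiency and 1 from a specimen of high feed efficiency. An animal of low efficiency has a high residual feed intake, the feed eaten beyond what size and production call for. The labels name no genotype, treatment, age or number of animals per specimen, so the arrays describe these 2 specimens, and no difference between them has a replicate check, an error over animals, a test or a p-value. Whole blood is a mixture, in which fewer cells of a type and less RNA per cell cannot be told apart.

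Lineage transcription factors bind DNA in progenitors and mature cells and switch on the genes of one branch of blood formation. SPI1 (PU.1, an ETS family protein) and the CCAAT/enhancer-binding proteins drive neutrophils and monocytes; GATA1 drives red cells, platelets, eosinophils and mast cells; GATA2 acts in stem cells and in mast cells and basophils; GATA3 and TCF7 act in T cells. RUNX1, with its partner CBFB, is needed for the first blood stem cells and later for platelets and lymphocytes, and SOX4 is an HMG-box factor of early B and T cell development. Many of them also work in mature blood leukocytes, such as CEBPB in monocytes and TCF7 in naive T cells, while mature red cells of cattle have no nucleus and make no new RNA.

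Intensities here are the Cy3 pixel median of a spot minus the array's background value. The background limit was an intensity of 10.9, the median of the negative control spots plus 3 robust SDs on either array. Of the 23 probes, 19 were above background on both arrays, 1 only in high feed efficiency and 3 on neither, so every one of the 10 genes kept at least 1 probe. The low feed efficiency array was the brighter one (75th percentile of probe intensities 98 against 81), and each intensity was divided by its array's 75th percentile before log2 values were taken. Differences below are log2 of low minus high feed efficiency relative to the median of all 10339 measured genes, which was -0.04; a gene takes its brightest probe above background. Repeated spots of the same probe within these 2 arrays had an SD of 0.10 (12 bright probes) and 0.23 (24 dim probes) in this log2 difference. This is error between spots only, with bright and dim divided at the median signal of all measured genes. None of the member probes was spotted more than once.

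No member was 2-fold apart. Among all genes, low feed efficiency was higher by 2-fold or more in 0.368% and lower by as much in 0.571%. These counts use scaled values before the median of all genes is subtracted. At 1.5-fold, SOX4 and RUNX1 were higher, as were 2.68% of all genes, and CEBPB and GATA1 were lower, as were 3.14% of all genes. GATA1 lay just past that limit. The other 6 members lay between: CEBPA and GATA2 below the median of all genes, and SPI1, CEBPD, GATA3 and TCF7 within 0.08 of it. Of the 10 genes 5 lay above and 5 below that median, and the members' median was -0.02, beside 0 over all genes by construction. The 19 probes divided in much the same way, 9 above and 10 below. Directions here rest on the scaling: without it, 14 of the 19 probes were brighter in low feed efficiency, 4 were dimmer (GATA1, the brightest CEBPA probe and 2 CEBPB probes) and 1 GATA2 probe was equal, and SOX4 and RUNX1 reached 2-fold, as they also did with scaling on spike-in controls.

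**Figure D1:**
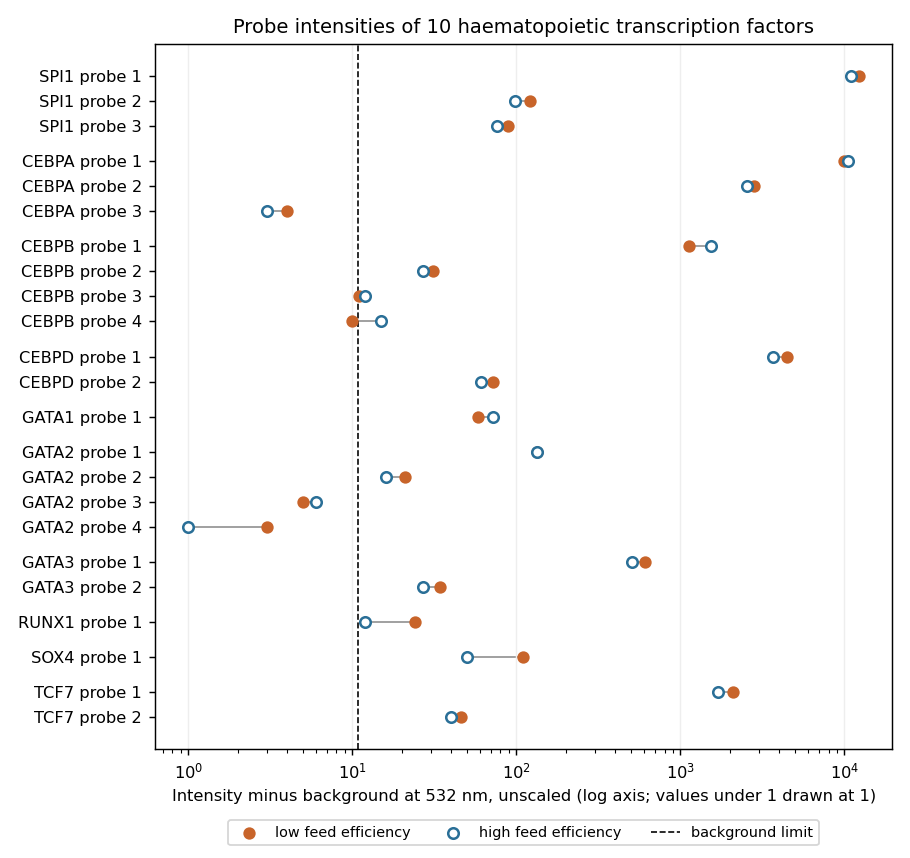
Intensity minus background of the 23 probes of the 10 factors on a log axis, unscaled, with low feed efficiency as filled and high feed efficiency as open circles and the background limit of 10.9 as a dashed line; values under 1 are drawn at 1. The widest gaps above the limit are those of SOX4 (110 against 50) and RUNX1 (24 against 12), and the brightest CEBPB probe lies to the right in high feed efficiency (1134 against 1527).

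SOX4 had the largest difference among the members and was read by a single probe. Its intensity was 110 in the low efficiency specimen against 50, on spots flagged good on both arrays. Before scaling, the 80 pixels of the low efficiency spot had a mean of 108 and an SD of 29, and the 80 pixels of the high efficiency spot a mean of 49 and an SD of 17, so the ranges of 1 SD did not overlap; this held for 3.12% of all probes above background in the same direction, and for no other member probe. After scaling, the ranges overlapped, and no member probe lay higher without overlap (0.423% of all probes did). The difference was 0.90, or 1.87-fold, and 68 of the 10339 genes had one at least as high. It remained positive under all 16 alternative settings that measured the gene, between 0.52 with normexp background correction and 0.91. An intensity above 50 on both arrays, as a filter, left SOX4 without a value. With the genes divided into 3 equal classes by signal (bright, middle and dim), the middle class, to which SOX4 belongs, had differences whose 5th to 95th percentile ran from -0.40 to 0.48. SOX4 lay in the lower part of that class, and the dim class below it ran from -0.57 to 0.64.

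RUNX1 was the other member above 1.5-fold and lay close to the background limit. Its single probe read 24 in low against 12 in high feed efficiency, and the high efficiency spot was not flagged good. Pixel values were 24 with an SD of 14 against 13 with an SD of 11, over 80 pixels each, and overlapped. The difference of 0.76 was exceeded or equalled by 144 genes, and the 5th to 95th percentile among the dim class of genes ran from -0.57 to 0.64. Here the background correction set the size of the value: it was 0.42 with the local background of each spot, 0.23 without background correction and 0.08 with normexp. A stricter background limit of 5 robust SDs, a minimum intensity of 50, or the use of spots flagged good on both arrays left RUNX1 without a value.

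Of the 3 CCAAT/enhancer-binding proteins, CEBPB was lower in low feed efficiency, CEBPA slightly lower and CEBPD near the median. CEBPB, which activates inflammatory genes in monocytes and supports neutrophil production under infection, read 1134 in low against 1527 in high feed efficiency at its brightest probe. This spot was flagged good on both arrays and was dimmer in low feed efficiency even before scaling, with pixel means of 1113 (SD 158) against 1498 (SD 184). The ranges of 1 SD did not overlap, before or after scaling, which in this direction held for 0.286% of all probes unscaled and 1.73% scaled, and for no other member probe. The difference was -0.67 (1.59-fold lower), with 177 genes at least as low, where the bright class of genes had a 5th to 95th percentile from -0.45 to 0.36. Beside it, monocyte markers had a median of -0.12 and neutrophil markers one of 0.14; their part in the CEBPB value was not tested.

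The other CEBPB probes gave smaller differences. The probe at 31 against 27 had -0.04, and the probe at 11 against 12, next to the background limit, had -0.36. The remaining probe read 10 in low feed efficiency, below the limit, and 15 in high feed efficiency. The 3 measured probes thus spanned 0.63, against a median span of 0.23 and a 90th percentile of 0.69 over 4995 genes with 2 or more measured probes, and with the mean over probes as the gene value the difference was -0.36.

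CEBPA, which commits progenitors to granulocytes and is held back by the pseudokinase TRIB1, read 9963 in low against 10518 in high feed efficiency at its brightest probe and 2803 against 2560 at the next. The differences were -0.31 and -0.10, on the same side of the median and of different size. A further CEBPA probe read 4 against 3 and was not found by the scanner software on either array. CEBPD, an acute phase regulator of myeloid cells, read 4452 in low against 3654 in high feed efficiency at one probe and 72 against 61 at the other. Its differences were 0.05 and 0.003, the narrowest span of the 7 members with several measured probes (0.05). For CEBPA the alternative settings gave -0.36 to -0.21, and for CEBPD 0.02 to 0.14.

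SPI1, whose dose sets the choice between monocyte and B cell fates, was read by 3 probes with little difference between the arrays. Its brightest probe read 12256 in low against 10990 in high feed efficiency, and the other probes 121 against 98 and 89 against 76. Differences were -0.08, 0.07 and -0.01, so the probes fell on both sides of the median. The brightest spot was not flagged good on the low efficiency array, and the value took either sign across settings, positive in 4 of 17.

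**Figure D2:**
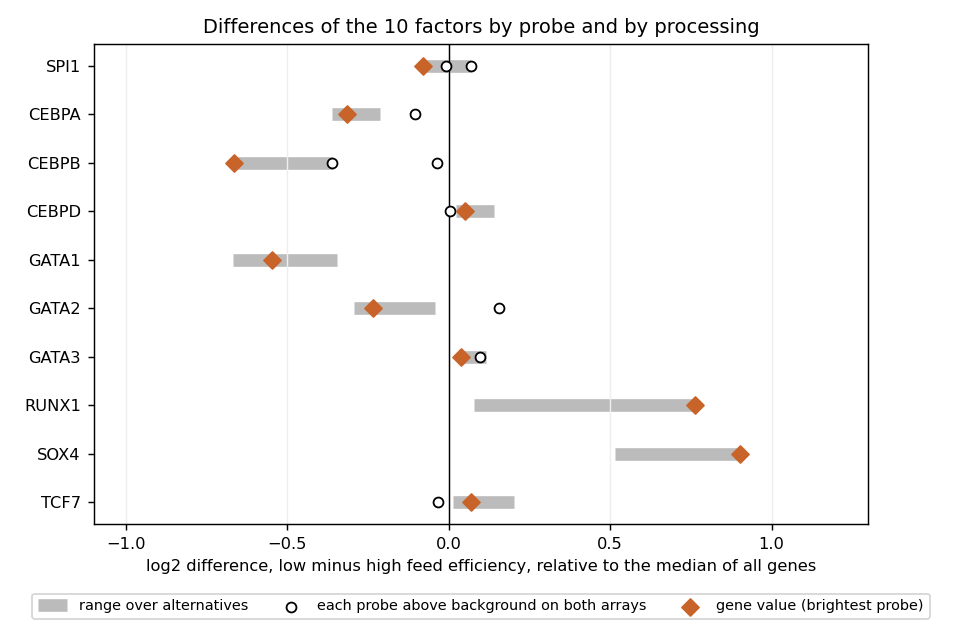
Log2 differences of the 10 factors, low minus high feed efficiency relative to the median of all genes: diamonds are gene values, open circles single probes above background on both arrays, and grey bars the range of the gene value over the alternative settings. The bars of CEBPA, CEBPB, GATA1 and GATA2 stay left of 0, although the dimmer GATA2 probe lies at 0.16. Those of SOX4, RUNX1, CEBPD, GATA3 and TCF7 stay right of it, with the RUNX1 bar reaching down to 0.08. Only the SPI1 bar takes both sides.

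GATA1 was lower in low feed efficiency and GATA2 slightly lower at one of its probes. GATA1 was read by 1 probe, at 58 in low against 72 in high feed efficiency, and thus was dimmer in low feed efficiency before scaling. The low efficiency spot was not flagged good: its 156 pixels had a mean of 54 and an SD of 45, against 71 and 24 over 80 pixels of the good spot in high feed efficiency. Relative to all genes the difference was -0.55 (1.46-fold lower), with 325 genes at least as low, and ran from -0.67 to -0.35 over the 16 settings that measured it. With only spots flagged good, GATA1 had no value. Erythroid markers had a median of 0.08 and platelet markers one of 0.06, and their part in the GATA1 value was not tested.

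On the array were 4 GATA2 probes, of which 2 passed the background limit. The brightest read 134 on both arrays, a difference of -0.24 once the brighter low efficiency array was scaled, and the other read 21 against 16, with 0.16. The sides of the median therefore differed between probes, and with the mean over probes as the gene value the difference was -0.04. The remaining GATA2 probes read 5 against 6 and 3 against 0, both under the limit.

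GATA3, which directs T helper 2 cells and is needed by all T cells, and TCF7, the nuclear partner of beta-catenin in T cells, lay near the median of all genes. GATA3 read 611 in low against 505 in high feed efficiency, and 34 against 27 at its other probe, with differences of 0.04 and 0.10. TCF7 read 2085 against 1688, and 46 against 40, with differences of 0.07 and -0.03. Over the alternative settings GATA3 ranged from 0.04 to 0.12 and TCF7 from 0.01 to 0.20. T cell markers had a median of -0.12. Among the 7 members with several measured probes, 4 (CEBPA, CEBPB, CEBPD and GATA3) had every probe on one side of the median, as had 58.8% of all such genes. The median span between probes was 0.15 for these members and 0.23 for all genes.

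**Figure D3:**
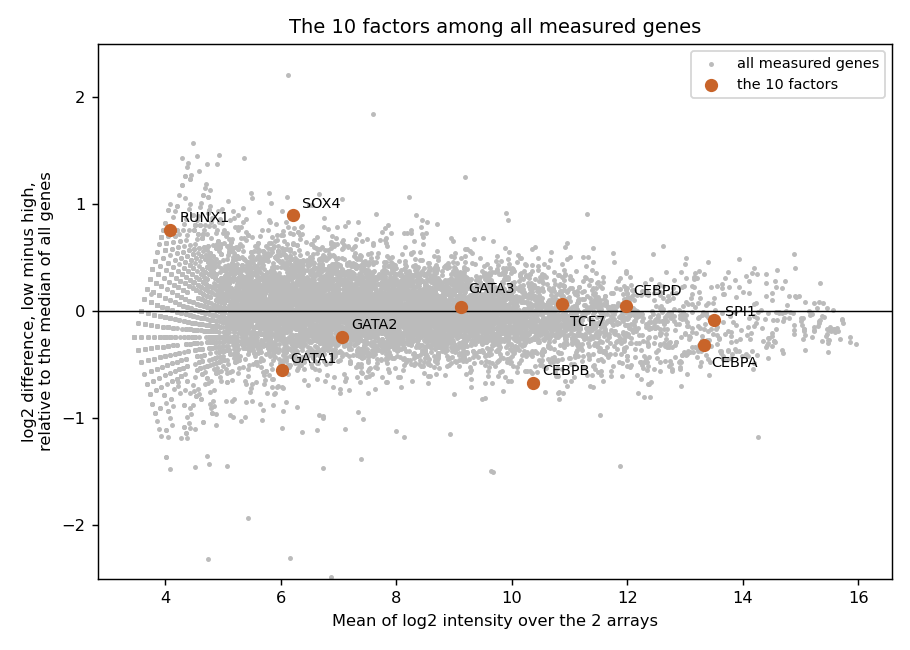
Log2 difference relative to the median of all genes against the mean log2 intensity of the 2 arrays, for all measured genes in grey and the 10 factors in colour; 6 genes lie outside the vertical axis. SOX4 at 0.90 and CEBPB at -0.67 lie near the edge of the genes of like signal, RUNX1 at 0.76 lies where dim genes spread widely, and SPI1, CEBPD, GATA3 and TCF7 lie in the centre.

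Relatives of the members in the same protein families were measured for 19 of 27 genes, of which 12 lay above and 7 below the median, with a list median of 0.02, beside -0.02 for the members. Of these, 1 differed by 2-fold or more: ERG, an ETS factor of stem cells and vessels, by a probe at 11 in low against 725 in high feed efficiency. The bright ERG spot was not flagged good, and its 32 pixels had a mean of 1995 and an SD of 2269; the other measured ERG probe read 20 against 16, with 0.09. TCF7L1, a repressing relative of TCF7 and the brightest of the list, read 1544 against 1921 at its only measured probe, with -0.55. The other TCF7L1 probes read 3 against 0, 4 against 4 and 0 against 2, all below the background limit. Chosen after their values were seen, RUNX3, the RUNX factor of cytotoxic lymphocytes, read 892 against 1051 (-0.47), LEF1, which shares T cell functions with TCF7, 194 against 212 (-0.36) and its other probe -0.07, and the C/EBP antagonist DDIT3 902 against 607 (0.34, and 0.48 at its other probe). CEBPE, the late granulocyte member of the C/EBP family and likewise chosen, read 119 against 101 and had 0.001.

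Binding partners and inhibitors of the members were measured for 21 of 23 genes, 12 above and 9 below the median, none 2-fold apart, with a median of 0.05. TCF12, an E protein that pairs with TAL1, was farthest above with 0.68 at 34 against 18, although its 3 probes reached down to -0.02. ID1, which blocks E proteins, was farthest below with -0.45 at 19 against 22, and the brightest partner was the deacetylase HDAC1 with -0.03 (3299 against 2858). Around GATA1, chosen after their values were seen, the cofactor ZFPM1 (FOG1) had -0.26 over 2 probes between -0.28 and -0.26, LMO2 0.07 and TAL1 0.29 at 23 against 16. The high efficiency spot of TAL1 was not flagged good, and its value ran from -0.23 to 0.29 over the 14 settings that measured it. Chosen likewise, CBFB, the partner of RUNX1, read 26 against 24 with -0.12, and TRIB1, the inhibitor of CEBPA, 363 against 268 with 0.20, and 0.60 at its other probe. The spots of CBFB and of the brightest TCF12 probe were not flagged good in high feed efficiency, nor that of ID1 in low.

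Other lineage factors were measured for 28 of 38 genes, 18 above and 10 below the median, none 2-fold apart, with a median of 0.10. IKZF1, the lymphoid factor Ikaros, was farthest above with 0.69 at 55 against 29, on spots not flagged good on either array (0.39 to 1.66 over settings). Its spots were uneven, with pixel means of 526 (SD 2799) and 142 (SD 1046). STAT5A, which carries cytokine signals, was farthest below with -0.60 at 49 against 63, on a low efficiency spot not flagged good. NFE2, a factor of platelets and red cells and the brightest of the list, had 0.22 (14858 against 10821). The low efficiency spot of NFE2 was likewise not flagged good. GFI1B, which acts with GATA1 in red cells and platelets, was chosen after its values were seen: its brightest probe read 84 against 102 with -0.52, and its 3 probes ran from there to -0.03. The granulocyte factor GFI1, chosen in the same way, read 18 against 12, with 0.35. Its high efficiency spot was not flagged good, and the value ran from 0.02 to 0.85 over the 14 settings that measured it.

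Textbook target genes were measured for 52 of 75 genes in all, 25 above and 27 below the median, with a list median of -0.01. Targets of GATA1 had a median of -0.17 over 16 measured genes, 11 below and 5 above, while GATA1 itself had -0.55. Of all 52 targets, 1 lay 2-fold or more below and none above: the GATA1 target ALAS2, which starts heme synthesis in red cells, at 112 against 248, with -1.38. Its low efficiency spot was not flagged good and had 156 pixels (mean 124, SD 108), as many as the GATA1 spot, against 80 pixels (mean 238, SD 58) in high feed efficiency. The alpha globin gene HBA, the brightest of the GATA1 targets, lay above the median with 0.17 (26648 against 20058). Its single probe was flagged good on neither array.

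Targets of SPI1 had a median of -0.09, with 8 of 12 measured genes below the median of all genes, beside -0.08 for SPI1. CSF1R, the macrophage growth factor receptor and a direct target of both SPI1 and RUNX1, was farthest away at 1475 against 2214, with -0.82 and its 3 probes between -0.82 and -0.48. TLR4, the endotoxin receptor, had -0.32 with probes on both sides of 0, and the integrin gene ITGB2, the brightest of this list, -0.26 over 6 probes between -0.40 and -0.19. The brightest ITGB2 spot was not flagged good in low feed efficiency. Targets of the C/EBP factors had a median of 0.14, with 8 of 10 above, while CEBPB and CEBPA had -0.67 and -0.31. Of these targets, 4 (CSF3R, LTF, S100A8 and S100A9) also count among the neutrophil markers. LTF, the lactoferrin gene of neutrophil granules, had 0.44 (133 against 83, with 3 probes between 0.20 and 0.66). The cytokine gene IL1B had 0.39 (30707 against 19903, with 4 probes between 0.39 and 0.52). The brightest IL1B spot was flagged good on neither array, and its other spots on both.

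For the remaining factors the target lists were short. RUNX1 targets had a median of -0.05 (6 of 8 below), a list that holds SPI1 itself, with MYL9, a platelet myosin light chain, at -0.54 and -1.07 at its 2 probes and NFE2 and CSF1R as given above. TCF7 targets had 0.03 (5 of 8 above), with the cytokine receptor IL7R at 0.83 (44 against 21) and CD4 at -0.37, whose other probe had 0.21. The high efficiency spot of IL7R was not flagged good and held 12 pixels, and the value ran from 0.28 to 1.46 over the 15 settings that measured it. GATA2 targets had 0.01 over 4 measured genes, which were GATA1 with -0.55, the histidine decarboxylase HDC with -0.15, the interleukin-33 receptor IL1RL1 with 0.17 and, chosen after its values were seen, the IgE receptor chain FCER1A with 0.18 (76 against 57). Only 2 GATA3 targets were measured, IL1RL1 and CCR4, a chemokine receptor of T helper 2 cells, with 0.11 and -0.30 at its 2 probes; the cytokine genes IL4, IL5 and IL13 were below background on both arrays. The target lists share genes: CSF1R, CSF3R, CD14, NFE2, PF4, CD4, MPO and IL1RL1 each stand in more than one. They also share genes with the other lists, so these lists are not separate readings. Among those shared are the partners TAL1 and ZFPM1, the lineage factors GFI1B and NFE2, and the relatives CEBPE and LEF1. Shared with marker lists are CD14 and CSF1R of monocytes and CD4, CD8A and IL7R of T cells, among others.

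**Figure D4:**
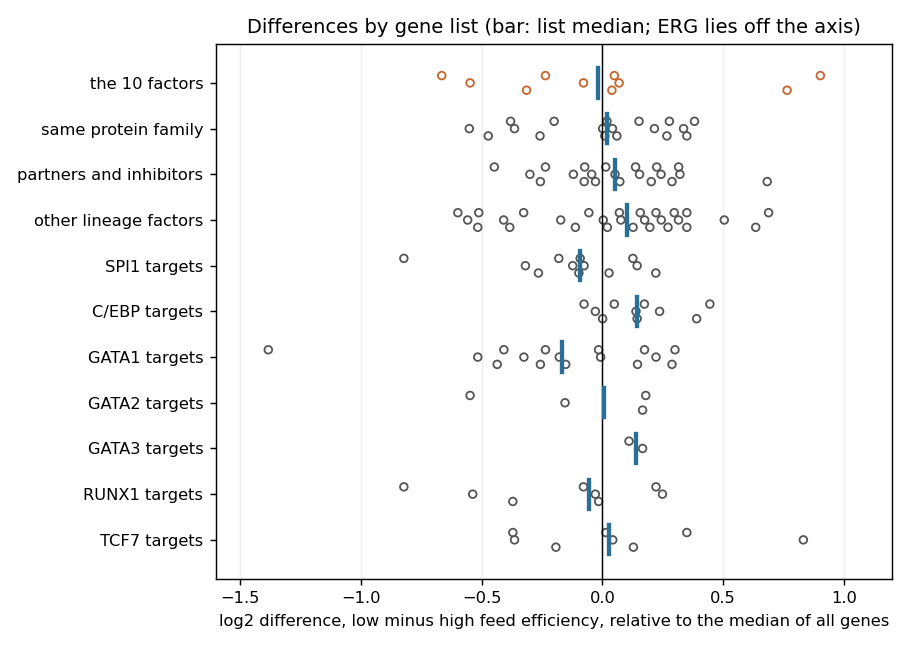
Log2 differences relative to the median of all genes for the 10 factors, their relatives, partners, other lineage factors and textbook targets; each circle is a gene and each bar a list median, and ERG at -6.28 lies off the axis. The members' median is -0.02, and the target lists range from -0.17 for GATA1 to 0.14 for the C/EBP factors.

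Markers of blood cell types were read beside the factors. Neutrophil markers, measured for 10 of 12 genes, had a median of 0.14 with 7 above the median of all genes. Their summed intensity was 79664 in low against 58196 in high feed efficiency, of which S100A12 alone gave 48851 and 34561. The brightest, S100A12 and S100A8, had 0.26 and 0.14. Monocyte markers (8 of 9) had -0.12 with 5 below, and sums of 29658 and 27998. FCN1 had -0.37 and LYZ 0.35, and their other probes -0.09 and -0.01. T cell markers (11 of 12) had -0.12 with 8 below, and sums of 26147 and 26021; CD4 had -0.37 and CD247 -0.13. Erythroid markers (8 of 12, 7 of the 12 listed also as GATA1 targets) had 0.08, split evenly around the median, and sums of 52212 and 38275, with HBA at 0.17 and HBG at 0.36. The listed markers SLC4A1 and CA1 were below background on both arrays. EPB42 passed the limit only in high feed efficiency, at 2 of its 3 probes (9 in low against 11 in high, and 7 against 14). Markers of other cell types passed it only in low feed efficiency, at 1 probe each. These were FCGR1A of monocytes (64 against 4), CD28 of T cells (15 against 7), SIGLEC8 (17 against 9) and KIT (12 against 6). Platelet markers (8 of 10) had 0.06 with sums of 29125 and 23344. PF4 had -0.02 and GNG11 0.26, with 3 GNG11 probes between 0.003 and 0.26. HBA was flagged good on neither array. The brightest HBG and LYZ spots were not flagged good in low, nor those of S100A12 and GNG11 in high feed efficiency.

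Other marker lists were B cells with -0.01 (7 of 8 measured, sums 9345 and 8132, CD79A 0.15 and TNFRSF13C -0.01) and natural killer cells with -0.34 (7 of 8, sums 19904 and 21363, CCL5 -0.40 and GZMB -0.15). The other probes of CD79A and TNFRSF13C had -0.29 and 0.05. Gamma-delta T cells, through CD163L1 and WC1.3 with 0.15 each, had 0.15 (2 of 5, sums 893 and 683). The 5 measured WC1.3 probes ran from -0.20 to 0.76 and the 6 of CD163L1 from 0.03 to 0.28. The brightest CD163L1 spot was not flagged good on the low efficiency array. Eosinophils, basophils and mast cells had -0.11 over 4 of 10 markers (sums 1695 and 1581), with ALOX15 at -0.06 and at -0.47 at its other probe. The eotaxin receptor CCR3 had -0.77 at a single probe, whose low efficiency spot was not flagged good. CPA3 was below background on both arrays. The sums are unscaled, and the part of cell composition in the factors' differences was not tested.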

How the data were processed

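Total RNA of whole blood was labelled with Cy3 and hybridised to 1 array per group, per the labels. The deposited scanner files hold spot intensities at 532 nm, written by GenePix Pro 6.1.0.4 with a background from negative controls and no normalization, per the file headers. Agilent Feature Extraction is the tool in the submitters' processing notes, which give no version of it. Deposited with the intensities are each spot's saturated pixels, in percent, and its flag, a score of 100 (good), 0 (unflagged) or -50 (not found). The authors' deposited table of log2 values, of processing not given in the sources used here, matched the scanner files in rank once its rows were moved by 1 (rho of 0.077 and 0.072 before, 1.00 after) and served as an alternative.

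Both arrays were on 1 slide and in 1 scan, per the file headers. Control spots were left out, as were spots flagged not found though above background (408 in low, 283 in high feed efficiency), leaving 43096 probes, of which 22000 were above background on both arrays. No member spot had saturated pixels. Names came from the RefSeq table of assembly ARS-UCD2.0, whose coordinates were not used because the files name no build. Normexp (offset 50), quantile and loess alternatives used limma 3.58.1; the rest was computed in Python 3.11.15, tested on simulated data. The members, lists and settings were chosen with earlier results of these data known. All probes of the 10 members are named; in each other list, up to 3 genes at least 2-fold apart, or else the 2 farthest from 0, and the brightest (fold and distance from 0 by the scaled difference before the median of all genes is subtracted); in marker lists, the 2 brightest. Others, including every gene named without a value on both arrays, were chosen after their values were seen. The number of arrays limits the precision.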

Additional observations from a re-analysis of the deposited data

How the results depend on the processing

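With 1 array per group, nothing here has a replicate check. RUNX1, close to the background limit, ran from 0.08 to 0.77 over the 14 settings that measured it. No paired analysis was possible because each group has 1 sample. Over 17 settings (16 planned, and the local background of each spot, chosen after seeing the data), the median of the members was -0.06 in the main setting, 0.22 when the arrays were left unscaled and 0.30 when they were scaled on 7 spike-in controls. The medians of relatives, partners, other lineage factors and targets moved likewise: from -0.02, 0.01, 0.06 and -0.05 to 0.25, 0.29, 0.34 and 0.22 unscaled, and to 0.34, 0.37, 0.42 and 0.31 with spike-ins. In these settings the median of all genes itself moved from -0.04 to 0.24 and 0.32, and the members' median relative to it was -0.02 in both. Members at least 2-fold apart numbered 0 in the main setting and 2 in either of these (SOX4 at 1.14 and 1.22, RUNX1 at the 2-fold limit and at 1.08), 4 at a threshold of 1.5-fold, 0 at 4-fold, and 0 in the other settings. Relative to all genes, the members' median ran from -0.14 to 0.06 and took both signs.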

Other observations

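Among the lineage factors without a value, some, chosen here after their values were seen, are well-known regulators whose probes all read below background on both arrays: KLF1 of red cells (10 in low against 6 in high feed efficiency), FOXP3 of regulatory T cells (2 against 1 and 10 against 7), HOXA9 (2 against 5 and 4 against 3) and HLF of stem cells (3 against 5 and 2 against 4). EOMES, BACH2 and ZBTB7B, factors of lymphocytes, each had 1 probe above the background limit only on the low efficiency array. These probes read 11 against 3, 14 against 5 and 16 against 10. The other probes of EOMES (7 against 2) and ZBTB7B (6 against 3) were below the limit on both arrays. The limit was 10.9 on both arrays, and the low feed efficiency array was the brighter one. Over all probes, 56.5% passed the limit on this brighter array, against 52.7% on the other.

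Spot flags went with the spread of the differences. Over all probes above background on both arrays, 0.340% of the 16477 flagged good on both were at least 2-fold apart, against 3.13% of the other 5523. Of the 19 measured member probes 14 were flagged good on both arrays; the GATA1 and RUNX1 probes and the brightest SPI1 probe were among the other 5. The SOX4 spot and the brightest CEBPB spot were flagged good on both.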
